A study of Homo sapiens with 39 samples.

Results

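The comparison described here asks how U266 cells changed within the opening hours of exposure to ch128.1Av. It takes the 5 arrays labelled U266 with ch128.1Av, 3 at 1 h and 2 at 3 h, against the 4 arrays labelled U266 Control, 2 at each of these hours. These 9 arrays are all that carry those labels, of 39 in the series. Hour was kept as a block, so that treated cells were set against controls of the same hour and the changes shared by both hours could be told from those seen at one.

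U266 is an established line of multiple myeloma, a malignancy of plasma cells, and the labels call it tolerant to the agent. ch128.1Av was given at 10 nM, and the controls received buffer for the same time. The remaining arrays are U266 at 0, 9 and 24 h and the second line of the series, IM9, labelled sensitive, at the same hours. No array of this comparison carries a genetic alteration by design, and each condition rests on 1 line. RNA of each sample was hybridised to an Illumina BeadChip array, and each level below is a log2 normalized intensity. A change is the treated minus the control level on that scale. Its standard error (SE) and adjusted p come from limma, with 11538 genes tested. A gene was called at an adjusted p under 0.05. No label states that replicates came from separate cultures, so the p-values cover only the spread between arrays, part or all of which may be technical. That spread was estimated over all 39 arrays of the series, not from the 9 compared. With the 9 arrays alone 0 genes were called for both hours together, and with the 20 U266 arrays alone 1 was.

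Transferrin receptor 1, encoded by TFRC, carries iron-loaded transferrin into the cell through clathrin-coated vesicles and returns to the surface by recycling endosomes. ch128.1Av is an antibody to this receptor fused to avidin, and agents of this kind redirect the receptor to lysosomes and can starve cells of iron. TFRC mRNA carries iron-responsive elements and is stabilised when iron regulatory proteins are active, that is, when cellular iron is low. Plasma cells and myeloma cells secrete large amounts of antibody, and their endoplasmic reticulum, ribosome and proteasome genes are accordingly active.

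The 9 arrays did not form treated and control groups of like quality. Brightness, taken as the 75th percentile of an array's raw intensity over its 5th, was 8.89 and 9.21 on the 1 h controls and 5.62, 3.95 and 4.43 on the 1 h treated arrays. The 3 h controls had 8.37 and 8.10, and the treated arrays 9.27 for replicate 1 and 5.37 for replicate 2. Thus 4 of the 5 treated arrays lay below every control, and treated replicate 1 at 3 h lay above them all. The treated mean was 5.73 and the control mean 8.64 (exact two-sided permutation test within hour, p = 0.05 over 60 arrangements, where the smallest possible p is 0.0167). The highest raw signal exceeded 60000 on the same 4 treated arrays and on none of the other 5, so these 4 are called the high-signal arrays below. They share this with both controls and treated replicate 1 at 9 h. At 1 h the treatment and this array class cannot be told apart, and treated replicate 1 at 3 h is the only treated array of the class that all 4 controls belong to.

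That array and 1 h control replicate 1 stood apart in another way. ACTG1, cytoplasmic gamma-actin, was at 8.03 on 3 h treated replicate 1 and at 8.06 on 1 h control replicate 1. On the other 7 arrays it was 10.64, 11.10, 11.60, 11.99, 12.12, 11.64 and 12.02. Its raw intensity was 305.5 and 332.7 on the low arrays, against 2381.7 to 4803.1 on the rest. SLC3A2, PSMC4 and CLEC2D were also more than 1 log2 unit lower than on the partner replicate on both arrays, and 9 and 16 genes were so in all on the 1 h and the 3 h array. These genes were chosen after their values were seen, and none of these 4 was called in the pooled fit, while ACTG1, SLC3A2 and CLEC2D were called as higher at 1 h (adjusted p = 0.0349, 0.0275 and 0.0285). Replicates of one group correlated across genes at 0.9937 or more, lowest for the 3 h treated pair.

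**Figure D1:**
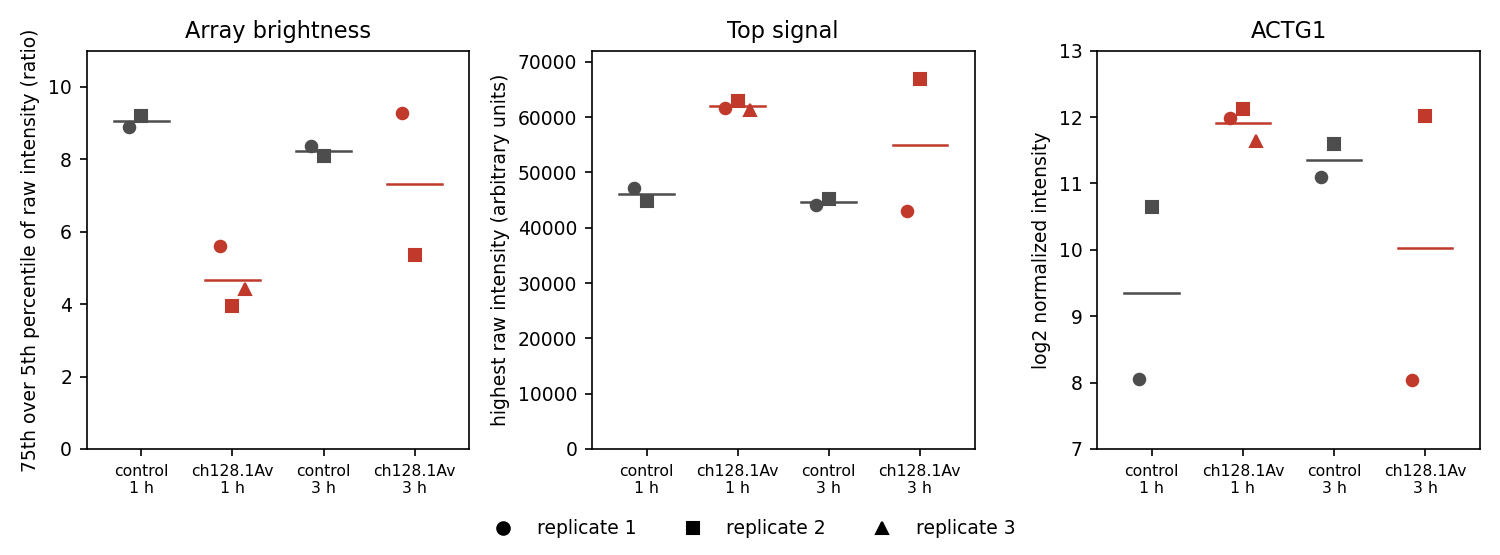
Brightness (the 75th over the 5th percentile of raw intensity), the highest raw intensity and the log2 normalized intensity of ACTG1 on each of the 9 U266 arrays, by treatment and hour. Points are arrays with their replicate number as the symbol and lines are group means. Treated replicate 1 at 3 h has the brightness and top signal of the controls, and ACTG1 is near 8 on that array and on 1 h control replicate 1.

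With the hours pooled, 189 genes were called (1.64% of the 11538 tested), of which 78 rose (0.676%) and 111 fell (0.962%). Without background subtraction the split was 59 higher to 38 lower, and 59 to 41 with the deposited log2 values. All 189 had the same sign at both hours. Of these, 188 had an unadjusted p under 0.05 at 1 h, but 92 at 3 h, and 171 were larger at 1 h. At 1 h alone 1030 genes were called (8.93%), 518 higher and 512 lower, and with equal medians 56 and 4. At 3 h alone 1 gene was called (0.00867%), and 551 had an unadjusted p under 0.05. That gene was ANKRD20A3P, a pseudogene, chosen after its values were seen. It was at 9.77 and 9.52 on the 3 h controls and at 9.24 and 9.15 on the treated arrays (-0.45, limma adjusted p = 0.0138), and all 5 arrays at 1 h lay between 9.14 and 9.22.

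The 3 h treated arrays differed from each other in how they related to the 1 h change. Across the 11538 genes, which are not independent replicates, the change at 1 h correlated at -0.11 with the change at 3 h. The correlation was -0.51 for 3 h treated replicate 1 minus the 3 h controls and 0.59 for replicate 2 minus the same controls. No array enters both hours. Of the 1030 genes called at 1 h, 577 had the same sign at 3 h with both treated arrays together, 238 of the 1030 with replicate 1 by itself and 909 of the 1030 with replicate 2. The high-signal array at 3 h therefore lay on the side of the 1 h change for most of those genes, and the array of the controls' class lay on the opposite side. At 9 h, treated replicate 1 is a high-signal array and treated replicates 2 and 3 are not. Replicate 1 minus the mean of those 2 correlated at -0.01 with the 1 h change (Spearman 0.14). With 3 h treated replicate 2 minus replicate 1 it correlated at -0.07 (Spearman 0.09). The part of the array class in these values was not tested.

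**Figure D2:**
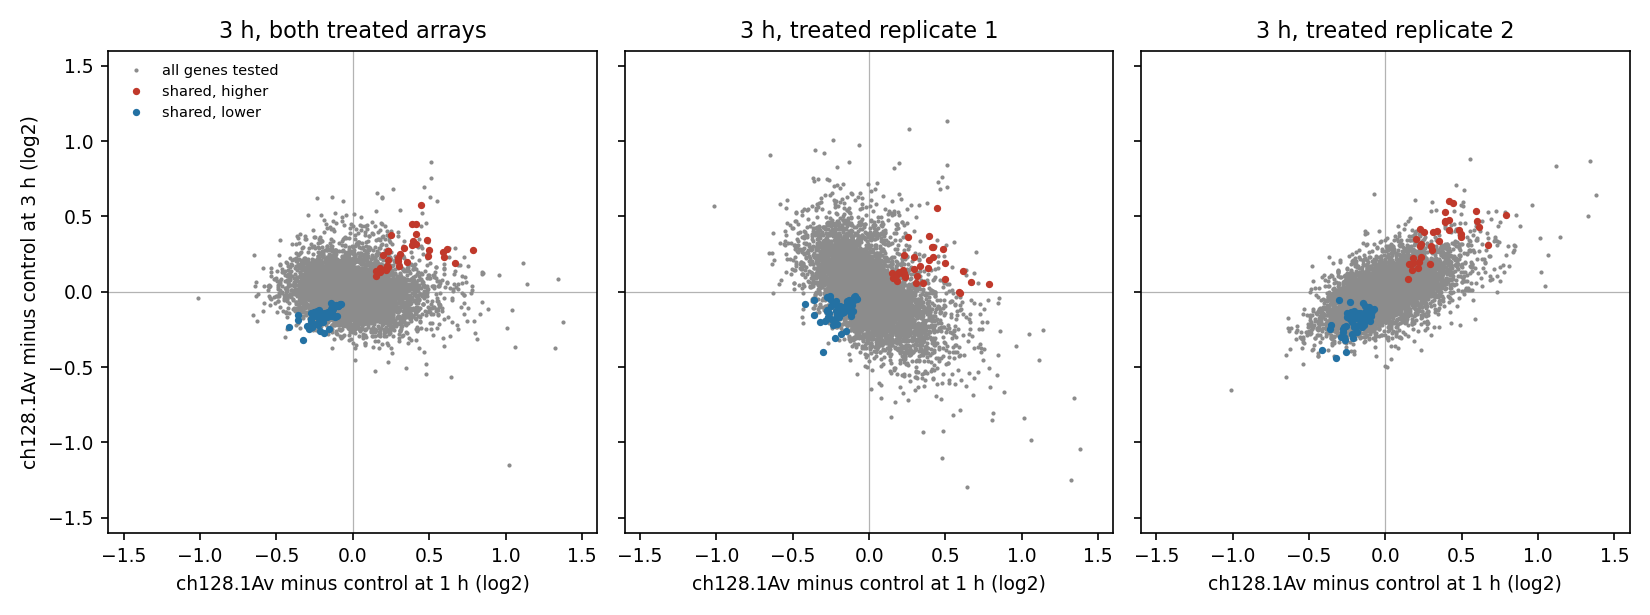
Treated minus control at 1 h (x axis, log2) against treated minus control at 3 h (y axis, log2) for 11538 genes, with both 3 h treated arrays together and with each by itself. Grey points are all genes and coloured points the 91 genes shared by both hours, and 4 genes lie outside the plotted range. The cloud slopes down for treated replicate 1 and up for treated replicate 2.

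The pooled count rested on single arrays. It was 3 without 1 h control replicate 1, 10 without 3 h treated replicate 2 and 1550 without 3 h treated replicate 1, where all treated arrays left are high-signal arrays. It was 76, 56 and 45 without 1 h control replicate 2, 1 h treated replicate 1 and 1 h treated replicate 2. With the high-signal class as a block 0 genes were called by limma, with 597 at an unadjusted p under 0.05, and with brightness as a covariate 21 were called. Without 3 h treated replicate 2, the 3 h comparison is made within one array class but rests on a lone treated array, replicate 1. Across genes its change from the 3 h controls correlated at -0.51 with the change at 1 h. ACTG1 was low on this array, as described above. An effect of treatment and a trait of this array cannot be told apart here.

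A gene was counted as shared by both hours where it was called in the pooled fit, had the same sign at each hour and had an unadjusted p under 0.05 at each. This held for 91 genes (0.789%), 34 risen (0.295%) and 57 fallen (0.494%), beside 26 and 16 without background subtraction. In 28 of the 34 and 53 of the 57 the treated and control arrays did not overlap within either hour. Over all genes tested 732 did not (6.34%). The rule's p at each hour favours genes without overlap, so the gap from that share is no support. The pooled changes were small, from 0.13 to 0.56 with a median of 0.30 for the risen genes and from 0.08 to 0.33 with a median of 0.18 in size for the fallen. The rule fixes the sign at both hours, so the side on which these genes lay at 3 h is a description. The leading genes named below were also picked for no overlap within either hour. For them the lack of overlap is part of the choice. The median of the risen genes was 0.13 on 3 h treated replicate 1 and 0.38 on replicate 2, and that of the fallen genes -0.12 and -0.18. Each array averages over a whole culture, so a change in every cell and a change in the share of cells expressing a gene cannot be told apart.

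Among the risen genes were enzymes and transporters of lipid and small-molecule metabolism. FDPS, the farnesyl diphosphate synthase of the mevalonate pathway, was at 9.16 and 9.27 on the 1 h controls and at 9.84, 10.13 and 10.04 on the 1 h treated arrays. At 3 h it was at 9.26 and 9.21 on the controls and at 9.29 and 9.74 on the treated arrays. The groups did not overlap at either hour but 3 h treated replicate 1 was close to the upper control. The pooled change was 0.56 (SE 0.0963, n = 5 and 4, adjusted p = 0.00811), with 0.79 at 1 h and 0.28 at 3 h. IMPA2, an inositol monophosphatase, rose by 0.35 (SE 0.0553, adjusted p = 0.00359), from 11.05 and 11.20 to 11.49, 11.58 and 11.46 at 1 h and from 11.04 and 10.96 to 11.16 and 11.46 at 3 h. SLC25A47, a mitochondrial carrier, rose by 0.45 (SE 0.0713, adjusted p = 0.00359), and its 3 h arrays were at 11.70 and 11.61 against 11.72 and 11.96. For all 3 genes treated replicate 2 was the higher of the treated arrays at 3 h.

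On the falling side stood ABCA1, the pump that exports cholesterol from cells. It was at 10.29 on both 1 h controls and at 10.05, 9.72 and 10.04 on the treated arrays, and at 3 h at 11.04 and 10.89 against 10.81 and 10.75. All 5 treated arrays were below both controls of their hour (-0.28, SE 0.0512, adjusted p = 0.0114). ABCA1 also moved with time in buffer, by 0.67 from 1 to 3 h in the controls, more than the difference between treated and control cells. It was lower with ch128.1Av at 9 h too (-0.59, adjusted p = 0.000127), in arrays that the early comparison does not use, at 9.71, 9.85 and 9.88 against 10.37 and 10.42. CHPT1, a choline phosphotransferase that makes phosphatidylcholine, fell by 0.25 (SE 0.0515, adjusted p = 0.0184).

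SESN1 and COX8A were the genes whose pooled call held whichever of the 9 arrays was left out, and the only 2 of 189. SESN1 encodes a sestrin, induced by p53 and known as an inhibitor of mTORC1 signalling. It was at 8.56 and 8.58 on the 1 h controls and at 8.32, 8.27 and 8.26 on the 1 h treated arrays. At 3 h it was at 9.25 and 9.27 against 9.06 and 8.96. As the choice of leading genes asked, the treated arrays were lower at both hours with no overlap, the array of the controls' class at 3 h among them. The pooled change was -0.27 (SE 0.0373, n = 5 and 4, adjusted p = 0.000806), with -0.29 at 1 h and -0.25 at 3 h (adjusted p = 0.00224 and 0.437). On leaving out single arrays its adjusted p ran from 5.62e-05 to 0.0193. Over 13 processing alternatives the SESN1 call was kept in 9, with a limma adjusted p of up to 0.663, and the COX8A call in 8.

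Over the time course SESN1 was at 8.38 and 8.39 at 0 h and rose in buffer by 0.69 between 1 and 3 h, with treated cells following below the controls at both hours. By 9 h the controls were at 8.21 and 8.28 and the treated arrays at 8.23, 8.34 and 8.41, which overlap, and by 24 h both were between 8.30 and 8.42. The change was 0.09 at 9 h and 0.07 at 24 h (adjusted p = 0.999 and 0.924). In the IM9 arrays of 1 and 3 h the pooled SESN1 change was 0.06 (adjusted p = 1), at a level of 7.85 to 8.02. SESN1 was detected on all 9 of those arrays. Genes detected on none of them had a median level of 7.75 and a 95th percentile of 7.80, below SESN1. The lowest mean level of a gene there was 7.67. A fall of the size seen in U266 would thus lie at the low end of the scale. It might not be measurable there, which was not tested. The difference between the lines, -0.32 (SE 0.0527), was the only 1 of 11538 genes called (0.00867%, limma adjusted p = 0.022). That call was kept in 9 of 21 alternatives and had an adjusted p of 1 with the high-signal class as a block.

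**Figure D3:**
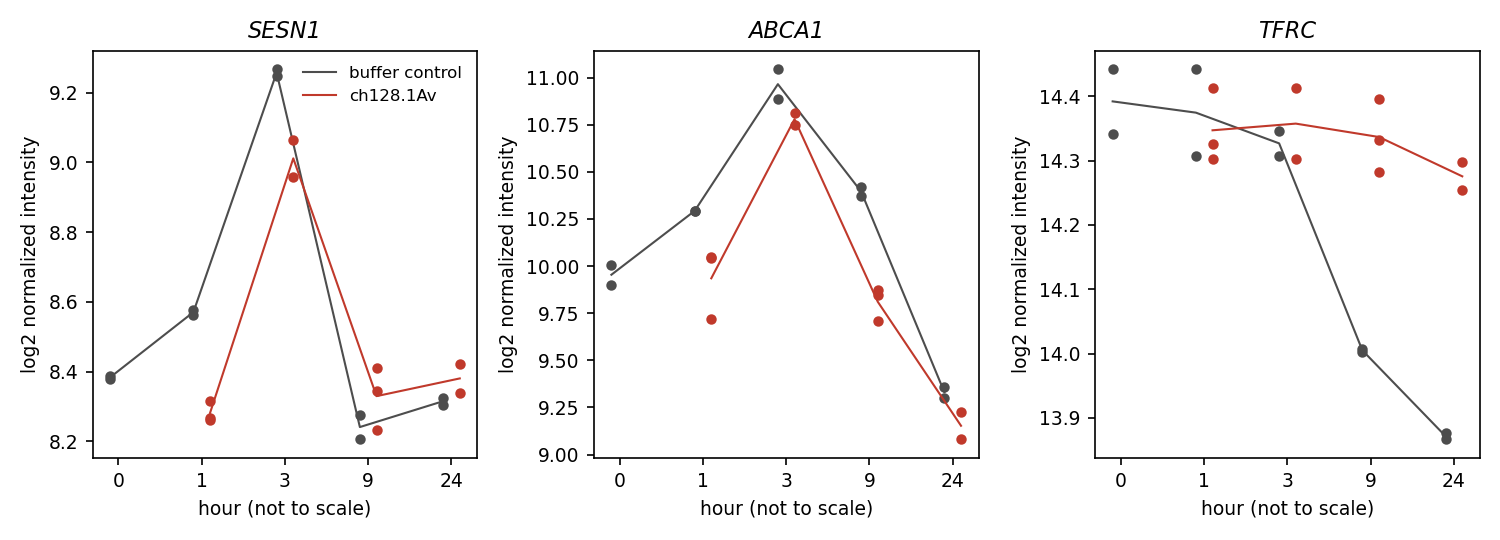
Log2 normalized intensity of SESN1, ABCA1 and TFRC on the 20 U266 arrays by hour (not to scale), with buffer controls in grey and ch128.1Av in red. Points are arrays and lines join group means. SESN1 and ABCA1 peak at 3 h in both arms with treated cells lower at 1 and 3 h, and TFRC separates at 9 and 24 h.

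COX8A, a subunit of cytochrome c oxidase, was at 15.08 and 15.02 on the 1 h controls and at 14.72, 14.87 and 14.90 on the treated arrays. Its 3 h levels were 14.99 and 15.03 against 14.80 and 14.82. All 5 treated arrays were below all 4 controls, and the pooled change was -0.21 (SE 0.0294, adjusted p = 0.000806). It was -0.21 with the high-signal class as a block as well, with an adjusted p of 0.155 there. Quantile normalization gives levels by rank, and 15.08 was also the level of RPS18 on 1 h treated replicate 1. The COX8A change is therefore a shift in rank among the brightest genes. The same limit holds for UQCRQ, SSR4, EIF1, RPS28, RPS18, RPS9 and RPL38. UQCRQ, a subunit of complex III, fell by 0.24 (SE 0.0447, adjusted p = 0.0114). NDUFB9, a subunit of complex I, rose by 0.31 (SE 0.0676, adjusted p = 0.0214), so the named subunits of the respiratory chain did not move one way. The corresponding list, which holds none of these 3, had 24 respiratory chain genes measured. Of them 0 were called, beside 1.64% of all genes tested, and their median was -0.0039 beside -0.01 for all genes tested.

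**Figure D4:**
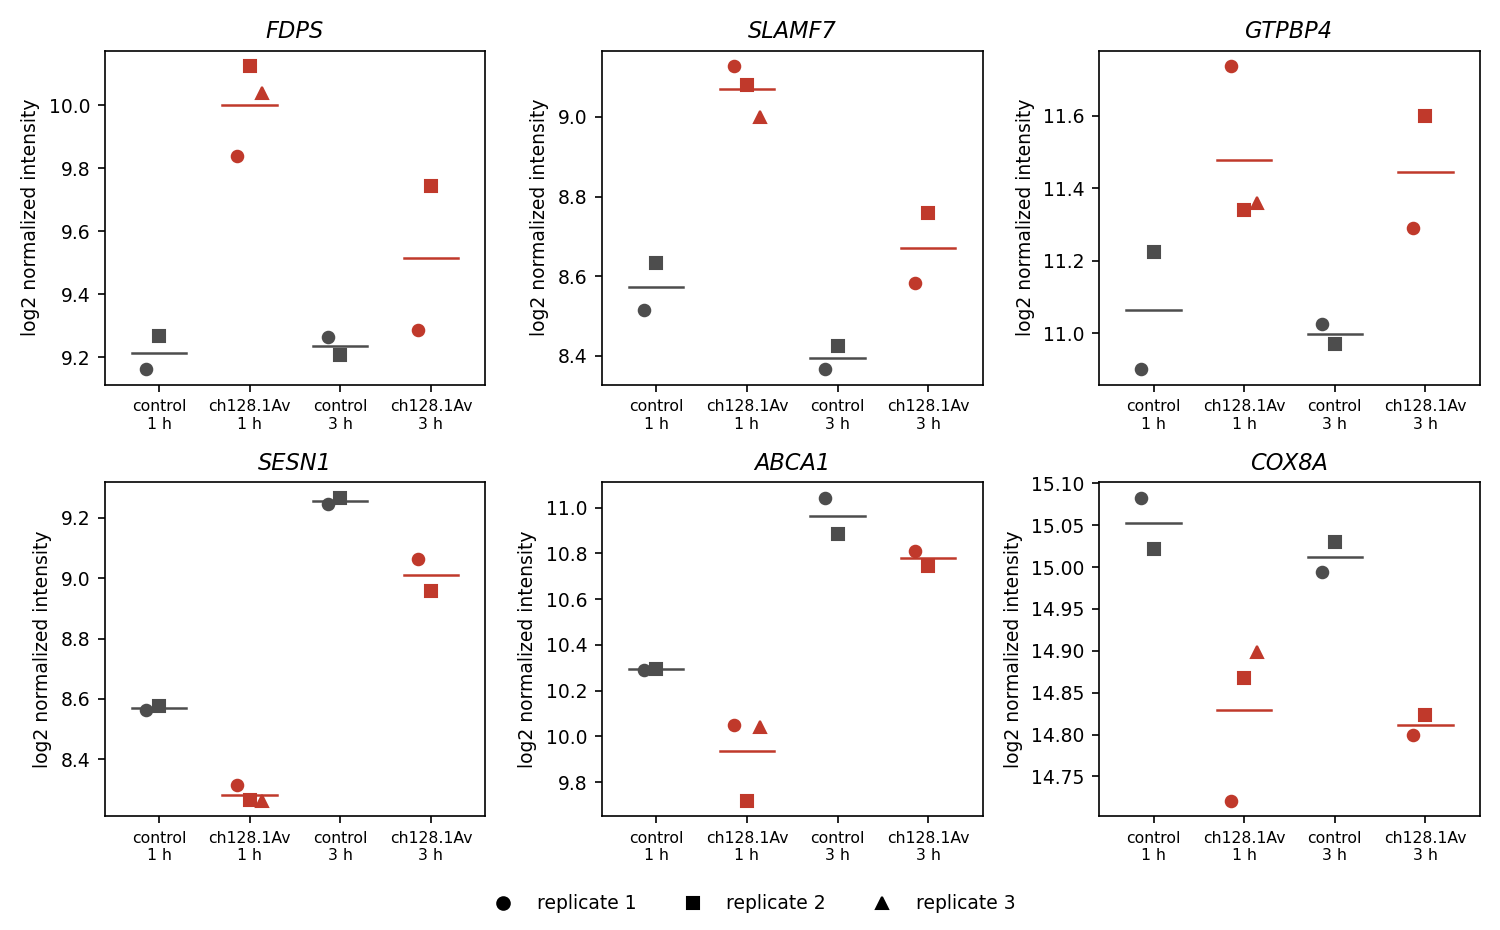
Log2 normalized intensity of 6 genes shared by both hours on each of the 9 U266 arrays, by treatment and hour, with the replicate number as the symbol and lines at group means. FDPS, SLAMF7 and GTPBP4 are higher and SESN1, ABCA1 and COX8A lower on the treated arrays at each hour. For FDPS, treated replicate 1 at 3 h lies close to the controls.

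Further leading risen genes act in ribosome assembly or encode ribosomal proteins. GTPBP4, a nucleolar GTPase of large-subunit maturation, was at 10.90 and 11.23 on the 1 h controls and at 11.74, 11.34 and 11.36 on the treated arrays. At 3 h it was at 11.02 and 10.97 against 11.29 and 11.60. Treated arrays were above controls at both hours (0.43, SE 0.0925, adjusted p = 0.0214). DDX27, a helicase of ribosomal RNA processing, rose by 0.46 (SE 0.0872, adjusted p = 0.0114). TSR3, which modifies the small-subunit ribosomal RNA, rose by 0.42 (SE 0.0959, adjusted p = 0.0305), with changes of 0.39 at 1 h and 0.45 at 3 h. The ribosomal protein genes RPL23, RPS28 and RPS18 rose by 0.42, 0.38 and 0.28. Their probes were not checked against the near-identical pseudogenes such genes have.

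Of 24 genes measured in the MYC and ribosome biogenesis list, which holds none of those 6, 1 rose, namely NPM1, the nucleolar phosphoprotein nucleophosmin (0.25, adjusted p = 0.03), and 0 fell, with a median of 0.02 (all genes tested: 0.676% risen, 0.962% fallen, median -0.01). The cytosolic ribosomal protein list, with 23 genes measured, holds none of RPL23, RPS28 and RPS18. Of its members 1 fell, RPS9 (-0.20, adjusted p = 0.0314), 0 rose and the median was 0.01. RPL38, outside the list and chosen after its values were seen, also fell (-0.16, adjusted p = 0.042), so ribosomal protein genes were called in both directions. NCL, nucleolin, was higher at 1 h (0.77, adjusted p = 0.00147) and at -0.01 at 3 h, and did not pass in the pooled fit (0.42, adjusted p = 0.0645). EIF1, which sets start codon choice in translation, fell by 0.27 (SE 0.0508, adjusted p = 0.0114).

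SLAMF7, a surface receptor of plasma cells, led the plasma cell list. It was at 8.51 and 8.63 on the 1 h controls and at 9.13, 9.08 and 9.00 on the treated arrays, and at 3 h at 8.37 and 8.42 against 8.58 and 8.76. Every treated array was above the controls of its hour (0.40, SE 0.0683, adjusted p = 0.00811). SSR4, a subunit of the translocon-associated complex of the endoplasmic reticulum, fell by 0.20 (SE 0.0418, adjusted p = 0.0208), with all 5 treated arrays between 14.77 and 14.81 and the controls between 14.95 and 15.07. CD27, a surface receptor of memory B and plasma cells, fell by 0.08 (adjusted p = 0.0392) near the lowest levels measured and passed detection on 4 of the 9 arrays. Of 19 list members measured, 1 rose and 2 fell, with a median of 0.06, beside 0.676% risen, 0.962% fallen and a median of -0.01 over all genes tested. PRDM1, the transcription factor that drives plasma cell identity, was higher by 0.19 without passing (adjusted p = 0.346).

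The cell type was checked against markers. By the detection score, which also fails some bright probes such as AP3M1, 18 of 19 measured genes of the plasma cell list passed detection on at least 1 of the 9 arrays, and 6 of 16 of the B cell list did. Of 9 genes measured that mark T, NK, myeloid, erythroid, epithelial or stromal cells, 5 were detected. Of the 9, 0 were called, beside 1.64% of all genes tested. VIM, vimentin, detected on all 9 arrays with a pooled change of 0.03 (adjusted p = 0.743), made up 93.2 to 93.8% of their summed linear level. Without VIM the sum of the other 8 was 1826 to 1856 on treated and 1833 to 1862 on control arrays. Apart from HBB, at 8.25 to 8.32, they lay near the lowest levels of the scale. CDH1 and COL1A1 passed detection on 0 of the 9 arrays, as did NKG7 and CSF1R. HBB and KRT18 passed on all 9, CD2 on 7 and HBA1 on 2.

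Regulators of chromatin, protein turnover and trafficking completed the leading genes. EZH2, the histone H3 methyltransferase of Polycomb complexes, rose by 0.28 (SE 0.0648, adjusted p = 0.03). FBXW7, a substrate receptor of a ubiquitin ligase, rose by 0.37 (SE 0.0854, adjusted p = 0.0314), and ARPC5, a subunit of the actin-nucleating Arp2/3 complex, by 0.31 (SE 0.0703, adjusted p = 0.03). ARL6IP4, a nuclear protein of RNA splicing, rose by 0.40 (adjusted p = 0.0364). PCMTD2 fell by 0.32 (SE 0.0702, adjusted p = 0.0236), at 9.43 and 9.39 against 9.03, 9.09 and 9.14 at 1 h, and at 9.54 and 9.67 against 9.40 and 9.16 at 3 h. GGA2, a clathrin adaptor of the trans-Golgi network, fell by 0.23 (SE 0.0496, adjusted p = 0.0214), and RASD1, a Ras-like GTPase induced by glucocorticoids, fell by 0.27 (SE 0.0602, adjusted p = 0.03). FAM241B, TTLL12, LEMD3 of the inner nuclear membrane, the nicotinic receptor subunit CHRNA5 and FAM171A1 fell by 0.21 to 0.25. AP3M1 also met the rule (-0.23, adjusted p = 0.0214), but its probe passed detection on 0 of the 9 arrays although its level was 9.79 to 10.15. Of 1276 genes tested that passed on none of these arrays, with a median level of 7.75, 8 were as bright as AP3M1, so a failed detection score does not always mean a low level.

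Of these 30 leading genes, 15 risen and 15 fallen, 30 were called without 3 h treated replicate 1, 8 without 3 h treated replicate 2 and 2 without 1 h control replicate 1. Scaled to equal medians, 0 were called, and EZH2 turned to -0.03. That scaling moved the median of all genes from -0.01 to -0.11.

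No gene of the iron handling list was called at the pooled hours. TFRC was at 14.31 and 14.44 on the 1 h controls and at 14.41, 14.30 and 14.33 on the treated arrays, and at 3 h at 14.35 and 14.31 against 14.41 and 14.30. The groups overlapped at both hours. The pooled change was -0.00 (SE 0.0361, adjusted p = 0.993), beside 0.33 at 9 h and 0.40 at 24 h (adjusted p = 0.00307 and 0.00167). FTL, ferritin light chain, had the highest normalized value of its array on 8 of the 9 arrays, where quantile normalization gives it one fixed level, so its change of -0.01 is no measure of it. Of 13 genes measured for iron uptake, storage and the iron regulatory protein, 0 were called (1.64% of all genes tested were), with changes from -0.08 to 0.02 and a median of -0.01. A list of this size would hold few calls at that share. ACO1, the iron regulatory protein that doubles as cytosolic aconitase, was lower at 1 h (-0.20, adjusted p = 0.0423) and at 0.06 at 3 h. Of 24 genes of iron-sulfur cluster and heme synthesis, 0 were called either, with a median of 0.01.

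Of 18 genes of transferrin receptor endocytosis and recycling, 1 rose and 1 fell, beside 0.676% and 0.962% of all genes tested. RAB11A, the GTPase of recycling endosomes, was at 12.06 and 12.07 on the 1 h controls and at 11.93, 11.91 and 11.95 on the treated arrays, and at 3 h at 12.06 and 12.10 against 12.003 and 11.92. Treated arrays were below controls with no overlap, by a small amount (-0.13, SE 0.0293, adjusted p = 0.0314), and the gene is among those shared by both hours. AP2S1, a subunit of the clathrin adaptor AP-2, rose by 0.12 in the pooled fit (adjusted p = 0.0372), with 0.20 at 1 h and 0.04 at 3 h. The list's median was 0.01. Under equal medians AP2S1 turned to -0.03.

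Immediate early genes, which respond to many stimuli within an hour, gave 0 calls among 23 measured. Over all genes tested 1.64% were called, and a list of this size would hold few calls at that share. EGR1 was high at 1 h in both arms, at 9.86 and 9.71 on the controls and at 9.59, 9.63 and 9.75 on the treated arrays, against 7.91 and 7.98 at 0 h. Its 3 h levels were 8.24 and 8.18 on the controls and 8.13 and 8.11 on the treated arrays. The arms overlapped at 1 h, and the pooled change was -0.11 (adjusted p = 0.222). FOS, JUN, DUSP1, IER2 and MYC had pooled changes between -0.04 and 0.05. IER5, the list's leading gene, was lower on all 5 treated arrays within its hour and missed the threshold (-0.30, SE 0.0806, adjusted p = 0.0546).

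Among inflammatory and cytokine genes, 1 of 21 NF-kB targets fell, beside 0.962% of all genes tested, at which such a list would hold few calls. This was the chemokine gene CCL5 (-0.23, SE 0.0541, adjusted p = 0.0325). It was at 8.69 and 8.70 against 8.34, 8.37 and 8.38 at 1 h, and at 8.72 and 8.81 against 8.65 and 8.67 at 3 h, with -0.34 and -0.10 as the change at each hour. In the IL-6, JAK and STAT3 list, where IL-6 is a growth factor of myeloma cells, 0 of 16 were called (1.64% of all genes tested were). IL6R, the receptor's alpha chain, gave the widest spread. It was at 8.62 and 8.83 on the 1 h controls and at 10.50, 10.14 and 9.57 on the treated arrays. At 3 h it was at 8.87 and 9.17 on the controls, 8.31 on treated replicate 1 and 9.89 on replicate 2. It was higher on the 4 high-signal arrays than on the 5 others. At 0 h, where neither array is of that class, it was at 10.28 and 10.13, and the part of the array class in these levels was not tested. The change was 1.34 at 1 h (adjusted p = 0.00608) and 0.77 pooled (adjusted p = 0.086). IL6 was at -0.07 (adjusted p = 0.496).

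The stress lists stand beside 1.64% of all genes tested called, a share at which lists of their sizes would hold few calls. SESN1 was the only call among 23 p53 targets. CDKN1A, which encodes the cell cycle inhibitor p21, was at 0.02 (adjusted p = 0.886). It passed detection on 4 of 9 arrays at a level of 11.73 to 12.43. Of 30 hypoxia and HIF-1 targets 1 fell, ADM, the vasoactive peptide adrenomedullin (-0.14, SE 0.0339, adjusted p = 0.0374), which is shared by both hours. The lists of ATF4 targets (26 measured), the unfolded protein response (20), heat shock (20) and the oxidative stress response (15) gave 0 calls each, with medians between -0.03 and -0.00. ATF4 itself was higher at 1 h (0.59, adjusted p = 0.0212) and at 0.19 at 3 h, and did not pass pooled (0.41, adjusted p = 0.0684). DDIT3, a target of ATF4 that encodes CHOP, was at 0.25 at 1 h and -0.08 at 3 h, and HSPA1B at -0.13 pooled, and neither was called.

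The growth lists had single calls in both directions, beside 0.676% risen and 0.962% fallen over all genes tested. These shares stand beside the other lists of this paragraph too, and lists of these sizes would hold few calls at them. Of 27 genes of G1/S and DNA replication, PCNA, the sliding clamp of DNA polymerases, rose (0.37, SE 0.0863, adjusted p = 0.0323) and MCM2, a subunit of the replicative helicase, fell (-0.33, SE 0.0776, adjusted p = 0.0314). MCM2 was at 12.74 on 3 h treated replicate 1, above both controls at 12.62 and 12.60, and at 12.30 on replicate 2. PLK1, a mitotic kinase, rose (0.38, SE 0.0914, adjusted p = 0.034) as 1 of 29 mitosis genes. CCND1, which U266 expresses from a rearranged locus, was at 0.01. Of 24 proteasome subunits PSMA7 and PSMC6 fell, each by 0.21 (adjusted p = 0.0364 and 0.0425), and of 20 interferon-stimulated genes IFI6 rose (0.37, adjusted p = 0.0473). FDPS was the 1 call of 16 sterol genes. The BCL2 family and caspases (25), histones (15) and B cell genes (16) gave 0 calls, and over all 25 lists 0 members were called at 3 h alone, where 0.00867% of all genes tested were.

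**Figure D5:**
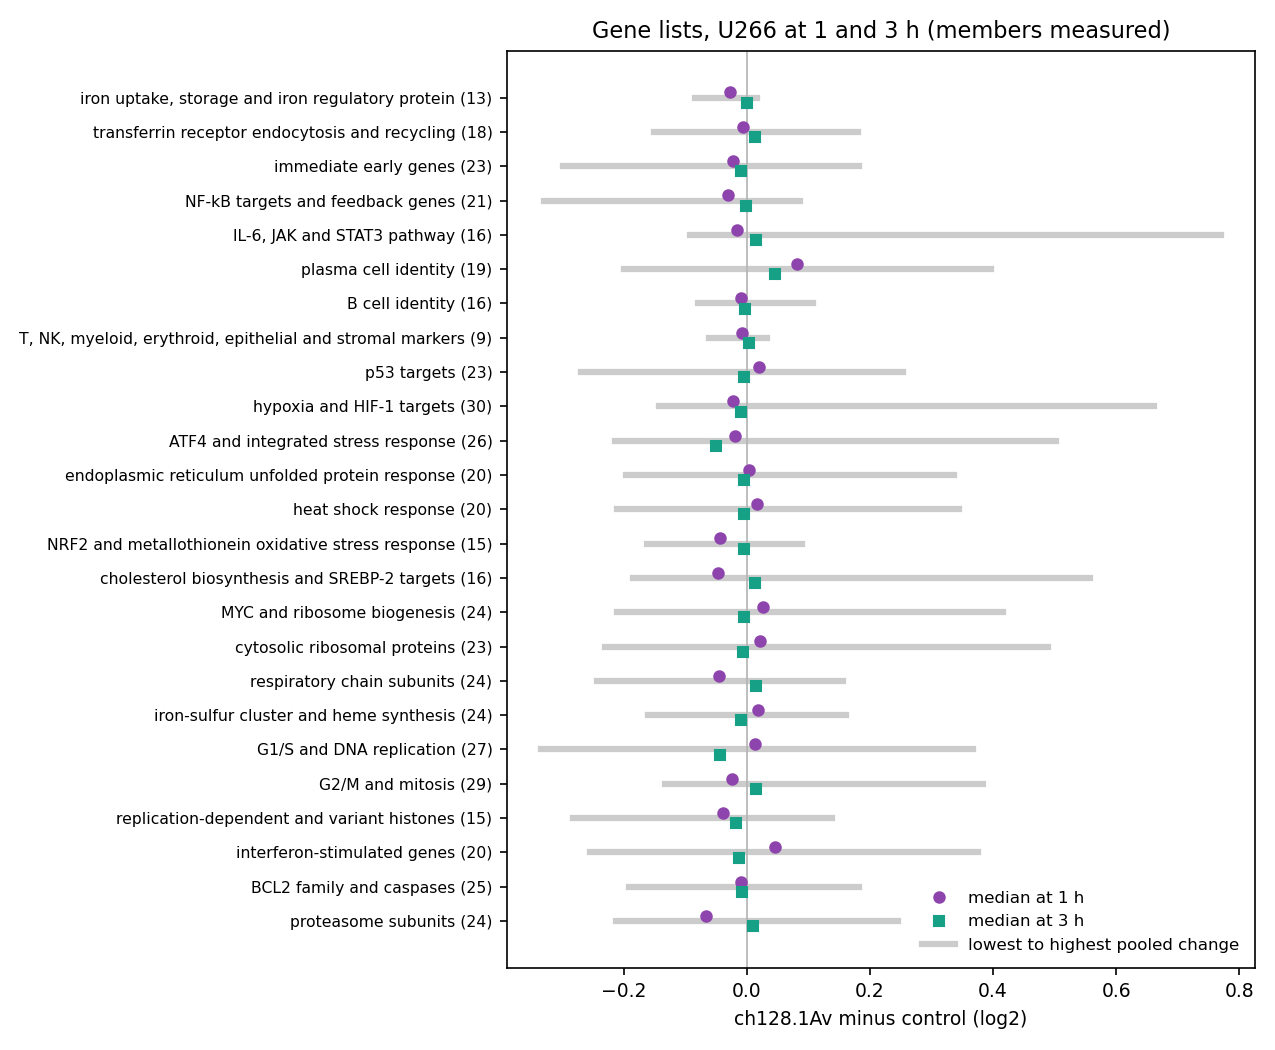
Median change with ch128.1Av at 1 h (circles) and 3 h (squares) of each of 25 gene lists in U266, on the log2 scale, with the lowest and highest pooled change of a member as a grey bar and the number of members measured in brackets. The medians lie between -0.07 and 0.08 at 1 h and between -0.05 and 0.05 at 3 h, with all genes tested at -0.01 and -0.00.

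The difference between the hours was tested directly and called 1 gene of 11538 (0.00867%), with 1778 at an unadjusted p under 0.05. ANAPC7, a subunit of the anaphase-promoting complex, was at 8.62 and 8.95 on the 1 h controls and at 9.27, 9.51 and 9.34 on the treated arrays. The 3 h levels were 9.12 and 9.01 against 8.64 and 8.88. Treated arrays were higher at 1 h and lower at 3 h with no overlap, and the change at 3 h minus that at 1 h was -0.89 (SE 0.144, limma adjusted p = 0.028). The count was 1161 without 3 h treated replicate 2 and 0 without 3 h treated replicate 1.

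At the later hours 5 genes were called at 9 h (0.0433%) and 2 at 24 h (0.0173%) in U266. Of the 34 shared risen genes, 4 had the same sign at 9 h with a median of -0.09, and 24 had it at 24 h with a median of 0.04, that is 11.8% and 70.6%. Of the 57 shared fallen genes, 15 had the same sign at 9 h with a median of 0.05, and 24 at 24 h with a median of 0.01, that is 26.3% and 42.1%. Of all genes tested 40% had at 9 h the sign of their pooled change, and 46% at 24 h. At 9 h 1 gene of each set was called, ABCA1 in the same direction and IKZF1, a lymphoid transcription factor chosen after its values were seen, in the opposite one (0.43 pooled and -0.59 at 9 h, adjusted p = 0.00842 and 0.00497), and at 24 h 0 were. At 9 h both controls and 1 of 3 treated arrays are high-signal arrays, while at 1 h every treated array and no control is. The part of this in the signs was not tested.

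IM9 cells at the same hours gave 0 calls by limma over 5 treated and 4 control arrays (0%), with 422 genes at an unadjusted p under 0.05. None of those 9 arrays had a top signal above 60000. Of the shared genes of U266, 21 of 34 risen and 29 of 57 fallen genes had the same sign in IM9 (61.8% and 50.9%, beside 44.6% of all genes tested), with medians of 0.03 and -0.00. SESN1 was the only gene for which the difference between the lines was called, with 1362 at an unadjusted p under 0.05. Between the 3 h and the 1 h controls of U266 211 genes differed (1.83%), 127 higher and 84 lower at 3 h, beside the 189 of the pooled treatment contrast. These sets overlap, with SESN1 and ABCA1 among the genes in both.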

How the data were processed

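Total RNA of U266 and IM9 cells was measured on 39 Illumina BeadChip arrays, and BeadStudio is named in the submitters' processing notes with no version. The deposited scanner table holds 20589 probes, each with a mean intensity that is linear and, as its values show, still raw. Beside it stands a detection score, a fraction per the file headers, of which 1 minus the value served as detection p. A deposited log2 table, which the authors had quantile-normalized as found from its values, served as an alternative. The 78 other per-sample columns of the scanner table went unused.

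The function neqc (limma 3.58.1, R 4.3.3) corrected background from that p, added an offset of 16, quantile-normalized and took log2. A probe stayed if 2 or more arrays had its detection p below 0.01 (12080), and of several probes of a gene the one with the highest mean, which left 11538, 1139 of them without a symbol. Symbols came from the array's probe annotation and were updated to RefSeq symbols through the gene identifier where one was found. A probe annotated with several symbols was left without one. A fit over all 39 arrays held a block for hour and 1 treatment term per line at 1 and 3 h and a mean for each remaining group (23 residual degrees of freedom). A fit of 18 group means (21 residual degrees of freedom) gave each hour and the difference between hours. The limma test was two-sided, with Benjamini-Hochberg adjustment over all genes tested. The fit was also run on simulated data with independent noise and no array class. That run cannot bear on how the array class affects the calls. For arrays, their number limits the precision.

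Genes were named by a rule: 15 genes always followed, of which FTH1 was not measured, the 15 risen and 15 fallen shared genes with the largest pooled change and no overlap within either hour, the 3 members of each of 25 lists with the smallest pooled p, and the genes called for the difference between hours or lines. The arrays compared, the lists and the rule were chosen with earlier results of these data known. The alternatives tried were scaling to equal medians, no background subtraction, an offset of 50, the deposited log2 table, no detection filter, detection on all 9 arrays, the 9 or the 20 U266 arrays alone, an intensity trend, array weights, brightness as a covariate, the high-signal class as a block, a replicate block and each of the 9 arrays left out. A fit without both arrays low in ACTG1 was chosen after seeing the data.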

Additional observations from a re-analysis of the deposited data

Results flagged for a closer look

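In 2 results an effect of ch128.1Av differed between groups by the test of the difference itself. The effect on ANAPC7 at 3 h minus that at 1 h in U266 was -0.894 (limma adjusted p = 0.028), from 0.59 at 1 h and -0.31 at 3 h, and it was higher on 3 of 3 treated arrays at 1 h and lower on 2 of 2 at 3 h. Over 23 alternatives this difference ran from -1.08 to -0.60 and was called in 13, with adjusted p from 0.000479 to 0.588. It was not called without 3 h treated replicate 1 (-0.77, adjusted p = 0.465), the array on which ACTG1 was low, nor without 1 h control replicate 1 (-0.73, adjusted p = 0.0638), 3 h control replicate 1 (-0.84, adjusted p = 0.166) or 1 h treated replicate 2 (-0.83, adjusted p = 0.118).

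The pooled early effect on SESN1 in U266 minus that in IM9 was -0.325 (limma adjusted p = 0.022), from -0.27 in U266, lower on 5 of 5 treated arrays, and 0.06 in IM9. SESN1 lay at 7.85 to 8.02 on the IM9 arrays and was detected on all 9. Genes detected on none of them had a median of 7.75 and a 95th percentile of 7.80. A fall like that in U266 would lie at the low end of the scale and might not be measurable there, which was not tested. Over 21 alternatives this difference ran from -0.52 to -0.23 and was called in 9, with adjusted p from 0.000878 to 1. It was not called without 3 h treated replicate 2 (adjusted p = 0.1), 3 h control replicate 2 (0.0646), 1 h control replicate 1 or 2 (0.0932 and 0.114), or 1 h treated replicate 2 or 3 (0.0608 and 0.0629). No group of these arrays held more than 3, so no formal test for a single sample far from the rest was made within a group. The arrays low in ACTG1 are described above.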

How the results depend on the processing

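The pooled count of 189 stayed within 1.5 times with an offset of 50, either detection filter, an intensity trend and equal weights for the hours. It became 0 with equal medians, 97 without background subtraction, 100 with the deposited log2 table, 0 in the 9 arrays alone, 1 in the 20 U266 arrays alone, 69 with array weights, 21 with brightness as a covariate, 0 with the high-signal class as a block, 1 with the replicate block, 8 at an adjusted p under 0.01 and 552 without both arrays low in ACTG1, 144 of them among the 189. The 0 counts had 2762, 1170 and 597 genes at an unadjusted p under 0.05. Leaving out each array gave 3 to 1550. The 91 shared genes became 0 with equal medians, 42 without background subtraction, 45 with the deposited log2 table, 0 and 1 in the 9 and 20 arrays alone, 40 with array weights, 21 with brightness, 0 with the high-signal class, 1 with the replicate block and 299 without both low arrays, with 3 to 446 on leaving out an array, 0 where an adjusted p under 0.05 was asked at each hour, and 120 where no overlap replaced the hourly p. At 1 h the count of 1030 became 60 with equal medians, 0 and 205 in the 9 and 20 arrays alone, 41 with brightness, 2 with the high-signal class, 252 with the replicate block, 573 without both low arrays and 212 to 1350 on leaving out an array. At 3 h the count of 1 became 11 with equal medians, 3 without both low arrays, 0 to 48 on leaving out an array, and 0 without background subtraction, with the deposited log2 table, in the 9 or 20 arrays alone, with array weights, with the high-signal class and with the replicate block. The difference between hours, 1 gene, became 177 with equal medians, 2 with an intensity trend or the high-signal class, 0 to 1161 on leaving out an array, and 0 with no detection filter, in the 9 or 20 arrays alone, with brightness and without both low arrays. The difference between lines, 1 gene, became 6 with array weights, 148 without both low arrays, 0 to 623 on leaving out an array, and 0 with equal medians, no background subtraction, the deposited log2 table, brightness, the high-signal class or the replicate block, and it cannot be had from the U266 arrays alone. Where a fit used fewer arrays or a block, fewer arrays or degrees of freedom bear on the count, and otherwise the cause was not tested. No label says whether replicate numbers pair treated with control arrays. Same-numbered arrays' deviations from their group means correlated at -0.70 and -0.57 at 1 h and at 0.29 at 3 h. In a group of 2 arrays the deviations mirror each other, so these values cannot decide on pairing. The replicate block is given only here. Of the 91 shared genes 78 kept their sign under every setting run and 13 turned with equal medians, which moved the median change of all genes to -0.11. The pooled change turned sign with equal medians for FTL (0.43), CDKN1A (-0.21), DDIT3 (-0.18), PRDM1 (-0.059), EZH2 (-0.0334), AP2S1 (-0.0319), CLTB (-0.14), MCL1 (-0.0327), HLA-DRA (-0.13), CD79B (-0.19), TRIAP1 (-0.0288), GPI (-0.0645), ATF5 (-0.043), XBP1 (-0.0658), EBP (-0.0287), MSMO1 (-0.00968), RPS3 (0.0692), ATP5F1B (0.12), CDK1 (-0.0803), H4C3 (0.17), H2BC4 (-0.018), IFI35 (-0.15), PSMA4 (-0.00407) and ANAPC7 (-0.0583). With brightness it turned for TFRC (0.0645), JUN (-0.00011), IER2 (-0.0214), CDKN1A (-0.0697), DDIT3 (-0.049), CYBRD1 (0.0178), DNAJB9 (0.00418) and TXN (0.00661). With the high-signal class it turned for TFRC (0.044), FOS (0.0107), IER2 (-0.00582), CDKN1A (-0.0646), DDIT3 (-0.0573), CCND1 (-0.00794), IL6 (0.0214), ACO1 (0.0128), CYBRD1 (0.0115), DNAJB9 (0.0108), HSPB1 (-0.0406), PRDX1 (0.0192), EBP (-0.053) and RRP12 (0.00553), and with the replicate block for TFRC (0.00677) and CDKN1A (-0.0117). On leaving out an array the pooled change ran from -0.00427 to 0.00986 for CCND1, from -0.0117 to 0.0685 for CDKN1A, from -0.0135 to 0 for FTL and from -0.0265 to 0.0346 for TFRC. EZH2 and AP2S1 are the only 2 of these genes called in the setting reported, and 0 of the turned values were called.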
